A study of Mus musculus with 28 samples.

Results

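Cells of day 6 of reprogramming that displayed the SSEA1 antigen were compared with cells of the same day that still displayed Thy1, on 4 of the series' 28 arrays. The 4 arrays were chosen by their titles: 2 of SSEA1+ cells (M2 and M3) and 2 of Thy1+ cells (M2 and M3). All came from mouse embryonic fibroblasts (MEF) of day 13.5 embryos, of C57BL6/129 strain, in which doxycycline switches on an OKSM cassette (Oct4, Klf4, Sox2 and Myc) through the Rosa26-M2rtTA transactivator. The labels allow either a single copy or a pair of copies of each allele and do not tie this to arrays. Every culture, that of the Thy1+ cells included, was kept with doxycycline, serum and LIF. The SSEA1+ cells were Thy1-negative, the Thy1+ cells SSEA1-negative, and both were labelled GFP-negative. Groups used beside them were Thy1+ and SSEA1+ cells of day 3 (2 arrays each), day 9 and day 12 (1 array each), cells of day 6 negative for both antigens (2 arrays), GFP+ cells of day 12 (1 array), unreprogrammed Thy1+ MEF (day 0, 2 arrays) and GFP+ iPS cells (3 arrays). In a separate table, SSEA1+ cells of day 6 had been split by the surface protein EpCAM (2 arrays per fraction). What M2 and M3 stand for is not given in the sources used here. The labels name no separate animals or cultures for them, so a p-value reflects array-to-array spread that may be technical.

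Reprogramming by Oct4, Klf4, Sox2 and Myc turns fibroblasts into pluripotent cells over days, and only a minority of cells complete it. Thy1 is a surface glycoprotein of fibroblasts that is lost early, whereas SSEA1 is a carbohydrate epitope built by fucosyltransferases that appears on cells on their way to pluripotency. Cells that keep Thy1 in the presence of the factors are known to complete reprogramming seldom. The comparison thus sets a fraction richer in cells that may go on against one that seldom does. The fate of the cells on these arrays was not measured. Along the way fibroblasts lose their matrix and mesenchymal genes, gain epithelial junctions and divide faster, and the endogenous pluripotency network is switched on late.

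Values are log2 signals of a 3′ expression array, where 1 unit is a 2-fold change. The sorted fractions carried the marker genes of their labels. Thy1, the sorted antigen itself, read 11.95 and 11.49 on the Thy1+ M2 and M3 arrays and 9.57 and 9.45 on the SSEA1+ M2 and M3 arrays, a difference of -2.21 ± 0.26 (SE, n = 2 and 2; -1.98 with Thy1+ M3 alone). Fut9, whose enzyme adds the fucose of this epitope, read 3.33 and 3.52 in Thy1+ cells and 6.20 and 5.77 in SSEA1+ cells. Neither gene overlapped between the fractions, and such a lack of overlap held for 54.3% of all genes. The cells were sorted by these antigens, so their separation is no separate test of the labels. Both fractions still carried fibroblast genes at high signal: Col1a1, a chain of type I collagen, read 12.68 and 12.55 in Thy1+ cells and 11.10 and 11.06 in SSEA1+ cells. In such bulk samples, fewer cells of a type and less RNA per cell cannot be told apart.

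The Thy1+ M2 array stood apart from the others. Control probe sets at the 3′ end of Gapdh lay 1.78 above those at its 5′ end on this array, against 0.93 on Thy1+ M3 and 0.58 to 1.11 on all 23 other arrays. For Actb the gap was 1.49 on Thy1+ M2, against 0.68 to 1.18 on the other 23. Over all 11807 genes, M2 and M3 differed by a root mean square of 0.656 in Thy1+ cells, 0.224 in SSEA1+ cells and 0.21 in cells negative for both antigens, and 1451 genes were 2-fold apart between the Thy1+ arrays against 7 between the SSEA1+ arrays. Differences and counts are therefore given with both Thy1+ arrays and then with Thy1+ M3 alone, written M3, where the lone array is assumed to vary like the other groups. Each SE uses limma's spread shared by all 15 groups, not that of the 4 arrays alone. It can be too small here, as the Thy1+ pair lay wider apart than the other day 6 pairs. Where the arrays of a gene are given singly, its value against M3 can be read from them. The part of M2 in each result beyond these paired values was not tested. Most markers of other cell types were low: 16 of 17 macrophage, 10 of 14 endothelial, 18 of 19 skeletal muscle, 13 of 15 neural and all 7 erythroid markers lay below the array median on all 4 arrays. Above it on all 4 lay Laptm5 of leukocytes, Tek and Ramp2 of endothelium and Stmn2 of neurons, of which Tek read 10.49 to 11.33, Ramp2 11.99 to 12.73 and Stmn2 10.19 to 10.84 over both fractions. The means of these lists lay between 4.47 and 5.79 on the SSEA1+ arrays and between 4.59 and 5.85 on the Thy1+ arrays. Of their genes, Laptm5 (1.10; M3 1.18), Neurog2 (1.38; M3 1.63) and Ngfr (1.38; M3 1.57) of the nervous system were called higher in SSEA1+ cells, Tnnt1 of slow muscle (-1.64; M3 -1.62) lower, and Flt1 of endothelium lower with both arrays only (-1.92; M3 -0.63). The lowest probe set of Ngfr differed by 0.14 and the highest of Flt1 by 0.01. Their part in the results was not tested.

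The 2 fractions differed at 1433 of 11807 genes (12.1%), by limma with Benjamini-Hochberg adjusted p under 0.05 and a difference of at least 2-fold, which is the rule for a called gene throughout. Of these, 695 were higher in SSEA1+ cells (5.89%) and 738 lower (6.25%). Each count of list members below is to be read against these shares, or against those given next for M3 alone. The lists were chosen with earlier results of these data known, so a count beside its share is a description, not a test. On 1432 of them no SSEA1+ array overlapped a Thy1+ array, which held for 54.3% of all genes. With Thy1+ M3 alone the count was 960 (8.13%), 406 higher (3.44%) and 554 lower (4.69%). Called in both fits and in the same direction were 797 genes (336 higher, 461 lower), 55.6% of the calls with both arrays and 83.0% of those with M3 alone, and 0 were called in opposite directions. All 1433 kept their sign with M3 alone, where 627 of them were under 2-fold. The lack of overlap fixed that sign in advance for 1432 of them. Both fits share every array but Thy1+ M2, so the absence of opposite calls is no separate test either. With M2 alone in place of M3, 2558 genes were called. In a fit of only the 4 arrays compared, limma called 480, among them 22 of the 30 genes named here for their size and 117 of 197 list members called in the larger fit. The 8 that missed there were Bex1 (adjusted p = 0.0771), Zwilch (0.0815), Ccl8 (0.137), Tgfbr3 (0.235), Calcrl (0.0706), Il1r1 (0.0578), Mmp19 (0.0808) and Clec2d (0.117). Mitotic genes kept 25 calls in that fit, replication genes 23 and matrix glycoproteins 16. The median difference over all genes was -0.05 with both arrays and -0.03 with M3 alone.

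Both sets of calls were also set against the single arrays of later days. Among the 797 genes called in both fits, the same 2-fold difference was present between the single SSEA1+ and Thy1+ arrays of day 9 in 95.4% and of day 12 in 95.9%. Among the 636 called only with both arrays, it was present in 34.1% on day 9 and 47.5% on day 12. These 636 include the 627 genes under 2-fold with M3 alone. A lower share at a later 2-fold cut was therefore largely set in advance and is no test of M2. Among genes called with M3 alone only, the difference was present in 82.8% on each day. The single arrays of days 9 and 12 are all titled M2. Of all genes, 5.8% were 2-fold higher and 8.61% 2-fold lower in SSEA1+ cells on day 9, and 9.6% and 10.1% on day 12. Of all 1433 called genes, 1106 differed more against M2 than against M3, with a median size of 1.72 against M2 and 1.09 against M3.

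**Figure D1:**
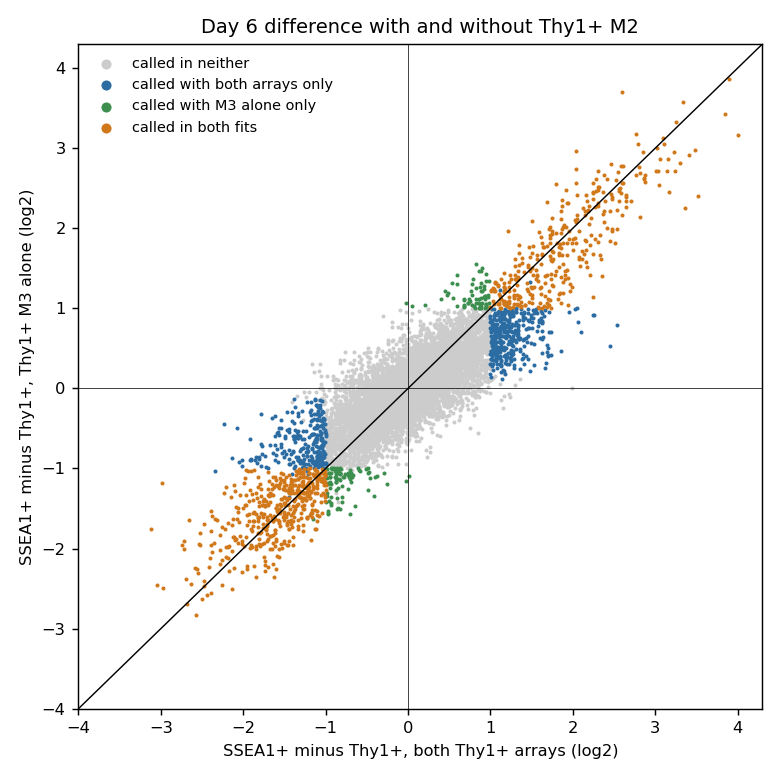
Each point is 1 of 11807 genes: the log2 difference between SSEA1+ and Thy1+ cells on day 6 with both Thy1+ arrays (horizontal) and with Thy1+ M3 alone (vertical), with the diagonal of equal values. The 797 genes called in both fits lie along the diagonal in both directions, and the 636 called only with both arrays lie within 2-fold of 0 on the vertical axis or miss the adjusted p there.

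Among the gene lists, the largest median difference was in cell division genes, which were higher in SSEA1+ cells. Of 29 measured genes of the mitotic cell cycle, 28 were called higher and 0 lower, with a median difference of 2.32 against -0.05 over all genes. The median was 2.41 and the count 29 with M3 alone. The remaining gene, Foxm1, a transcription factor of mitotic genes, differed by 0.82 with both arrays and 1.11 with M3 alone, and its 4 probe sets ranged from -0.29 to 2.03. With both arrays the list was led by Cenpe, a kinetochore motor, Ttk, a kinase of the spindle checkpoint, Mki67, the proliferation antigen Ki-67, Bub1, another checkpoint kinase, and Nusap1, a spindle protein. With M3 alone Cenpe stayed first, followed by Bub1 (2.87), Ttk and the centromeric histone gene Cenpa (2.70). The lowest probe sets of Bub1 and Nusap1 differed by 1.39 and 0.82.

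Cenpe read 8.53 and 8.18 on the SSEA1+ M2 and M3 arrays and 4.38 and 5.38 on the Thy1+ M2 and M3 arrays. The difference was 3.48 ± 0.26 (SE, n = 2 and 2; limma adjusted p = 6.73e-07), 11.1-fold, and 2.98 with M3 alone. In the fit of only the 4 arrays compared, its limma adjusted p was 0.0231. Ttk read 9.16 and 9.24 in SSEA1+ cells and 5.44 and 6.49 in Thy1+ cells. It differed by 3.24 ± 0.24 (limma adjusted p = 6.22e-07; 0.0254 in the fit of only the 4 arrays), and by 2.72 with M3 alone. Mki67 stood at 11.32 and 11.34 in SSEA1+ cells and at 7.45 and 8.88 in Thy1+ cells, 8.97-fold apart with both arrays and 5.48-fold with M3 alone. For all 3 genes the Thy1+ M2 array was the lowest, the Thy1+ M3 array followed, and the SSEA1+ arrays lay close together well above both. Cells negative for both antigens lay between, with Mki67 at 10.46 and 10.55.

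Other genes of division were among the 15 that were highest by the naming rule. Pclaf, a PCNA-binding protein of S phase, read 10.69 and 10.54 in SSEA1+ cells against 6.72 and 7.71 in Thy1+ cells. Zwilch, of the kinetochore RZZ complex, read 9.47 and 9.18 against 4.86 and 7.08, and its difference of 3.36 dropped to 2.25 with M3 alone. Aspm, a spindle pole protein, differed by 3.15, Cep55, which acts in the final cut of cell division, by 3.14, and Brca1, of homologous recombination repair, by 3.30. These 3 differed by 2.86, 2.71 and 2.82 with M3 alone. Brca1 had 4 probe sets, of which the lowest differed by 0.11.

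DNA replication genes moved the same way. Of 37 measured, 31 were called higher and 0 lower, with a median of 1.83, and 30 were called with M3 alone (median 1.79). Mcm10, which helps to load and start the replicative helicase, was called with 2.88 ± 0.14 (adjusted p = 5.45e-08) and 2.67 with M3 alone. Its arrays read 8.17 and 8.17 in SSEA1+ cells and 5.08 and 5.50 in Thy1+ cells, without overlap. Mcm5, a subunit of the MCM helicase, read 9.06 and 9.01 against 6.66 and 6.25, and here the M2 array was the higher of the Thy1+ pair. Cdc6, which loads the helicase at origins, read 6.94 and 6.67 against 4.11 and 4.59. The sliding clamp gene Pcna differed by 1.62 with both arrays and by 0.83 with M3 alone, where it was under 2-fold. Rrm1, the large subunit of ribonucleotide reductase, differed by -0.42 with both arrays and 0.14 with M3 alone and was called in neither, whereas Rrm2, the small subunit, was called with 2.27 (M3 1.87). The second Rrm1 probe set differed by 0.72.

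Promoters of these genes are shown because most members of both lists moved together. Windows of 300 bases from RefSeq (build GRCm38.p6, 250 before to 50 after the start) matched 23 of the 29 mitotic genes (25 windows) and 31 of the 37 replication genes (38 windows). The letters of the cell cycle homology region (CHR), TTTGAA or TTCGAA on either strand, stood in 20 of 25 mitotic windows (80.0%) and in 15.8% of replication windows, against 19.2% of all 32851 windows. Letters of an E2F site, TTTCCCGC or TTTGGCGC on either strand, stood in 10 of 38 replication windows (26.3%) and in 0 of 25 mitotic windows, against 1.56% of all windows. CCAAT, on either strand, stood in 84.0% of mitotic and 57.9% of replication windows, against 37.4% of all. A match is a description of letters, not of a bound site. The windows shown are those of the 2 genes of largest difference in each list that held the letters, with the CHR letters in capitals for Ttk (chr9:83834439-83834738, + strand) and Mki67 (chr7:135716330-135716629, - strand) and the E2F letters in capitals for Mcm5 (chr8:75109259-75109558, + strand) and Cdc6 (chr11:98907901-98908200, + strand). Each is written along the strand of its gene, 5′ to 3′, and capitals that spell the complement mark letters on the opposite strand.
Ttk: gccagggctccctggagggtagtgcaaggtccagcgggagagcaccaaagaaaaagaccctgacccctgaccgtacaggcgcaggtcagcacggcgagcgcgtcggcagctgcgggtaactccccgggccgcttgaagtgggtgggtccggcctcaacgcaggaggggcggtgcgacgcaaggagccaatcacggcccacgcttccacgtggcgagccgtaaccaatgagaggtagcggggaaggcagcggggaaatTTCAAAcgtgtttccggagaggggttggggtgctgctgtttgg
Mki67: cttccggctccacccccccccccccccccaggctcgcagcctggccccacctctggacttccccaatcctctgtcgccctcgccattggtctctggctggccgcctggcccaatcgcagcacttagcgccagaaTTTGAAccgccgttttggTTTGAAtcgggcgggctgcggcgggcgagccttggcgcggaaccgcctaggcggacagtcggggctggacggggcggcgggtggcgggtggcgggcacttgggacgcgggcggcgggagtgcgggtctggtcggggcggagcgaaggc
Mcm5: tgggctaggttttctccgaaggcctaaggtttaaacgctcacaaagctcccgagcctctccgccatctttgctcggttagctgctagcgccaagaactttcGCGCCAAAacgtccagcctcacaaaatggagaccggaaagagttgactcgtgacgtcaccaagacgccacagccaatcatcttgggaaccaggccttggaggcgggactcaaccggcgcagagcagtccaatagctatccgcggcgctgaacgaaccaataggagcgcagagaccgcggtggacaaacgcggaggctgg
Cdc6: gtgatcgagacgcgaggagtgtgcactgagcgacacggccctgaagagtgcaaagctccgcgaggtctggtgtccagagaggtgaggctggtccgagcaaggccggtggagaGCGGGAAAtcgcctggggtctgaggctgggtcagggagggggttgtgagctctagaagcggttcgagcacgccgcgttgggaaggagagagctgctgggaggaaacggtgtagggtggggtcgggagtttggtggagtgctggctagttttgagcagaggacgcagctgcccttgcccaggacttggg

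Of 24 measured inhibitors of the cell cycle and p53 targets, 1 was called higher and 3 lower (median -0.17), and 2 and 2 with M3 alone (median -0.16), against 5.89% higher and 6.25% lower over all genes with both arrays. Lower in SSEA1+ cells were Cdkn2b, an inhibitor of the cyclin D kinases (-1.95; M3 -1.70), Cdkn1c, the imprinted p57 inhibitor (-1.82; M3 -1.73), and Cdkn1b, p27 (-1.27, but -0.53 and not called with M3 alone). Cdkn2b read 8.17 and 8.31 in SSEA1+ cells and 10.44 and 9.94 in Thy1+ cells. The p21 gene Cdkn1a differed by -0.10 (M3 -0.21) and the Ink4a/Arf gene Cdkn2a by -0.32 (M3 -0.36), and neither passed the test.

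Of 19 ribosome biogenesis genes, 8 were called higher and 0 lower in SSEA1+ cells (median 0.90), and 5 with M3 alone (median 0.78), against 5.89% and 3.44% of all genes. Of 25 chromatin regulators, 10 were called higher and 0 lower (median 0.74), and 6 with M3 alone (median 0.61). The fit of only 4 arrays called 2 and 4 of them. Hells, a remodeller that works with DNA methylation, read 8.64 and 8.13 in SSEA1+ cells and 5.56 and 5.62 in Thy1+ cells. Dnmt1, the maintenance DNA methyltransferase, differed by 1.88 (1.81 with M3 alone), and Ezh2, the Polycomb methyltransferase, by 2.08 (1.64). The de novo methyltransferase Dnmt3b differed by 2.35 with both arrays and 1.40 with M3 alone, as it read 4.29 on Thy1+ M2 and 6.18 on Thy1+ M3, and its other probe set differed by 0.61. Dnmt3a read 10.99 on Thy1+ M2 and 8.30 on Thy1+ M3 against 8.42 and 8.58 in SSEA1+ cells, so that its difference of -1.14 became 0.21 with M3 alone, and it was called in neither. The highest of its 5 probe sets differed by -0.04. Of 22 glycolysis genes 2 were called higher (median 0.19), and of 29 genes of oxidative phosphorylation 2 (median 0.48), shares near the 5.89% of all genes. With M3 alone these were 0 and 1, the latter being Cycs, cytochrome c (1.50; M3 1.17).

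**Figure D2:**
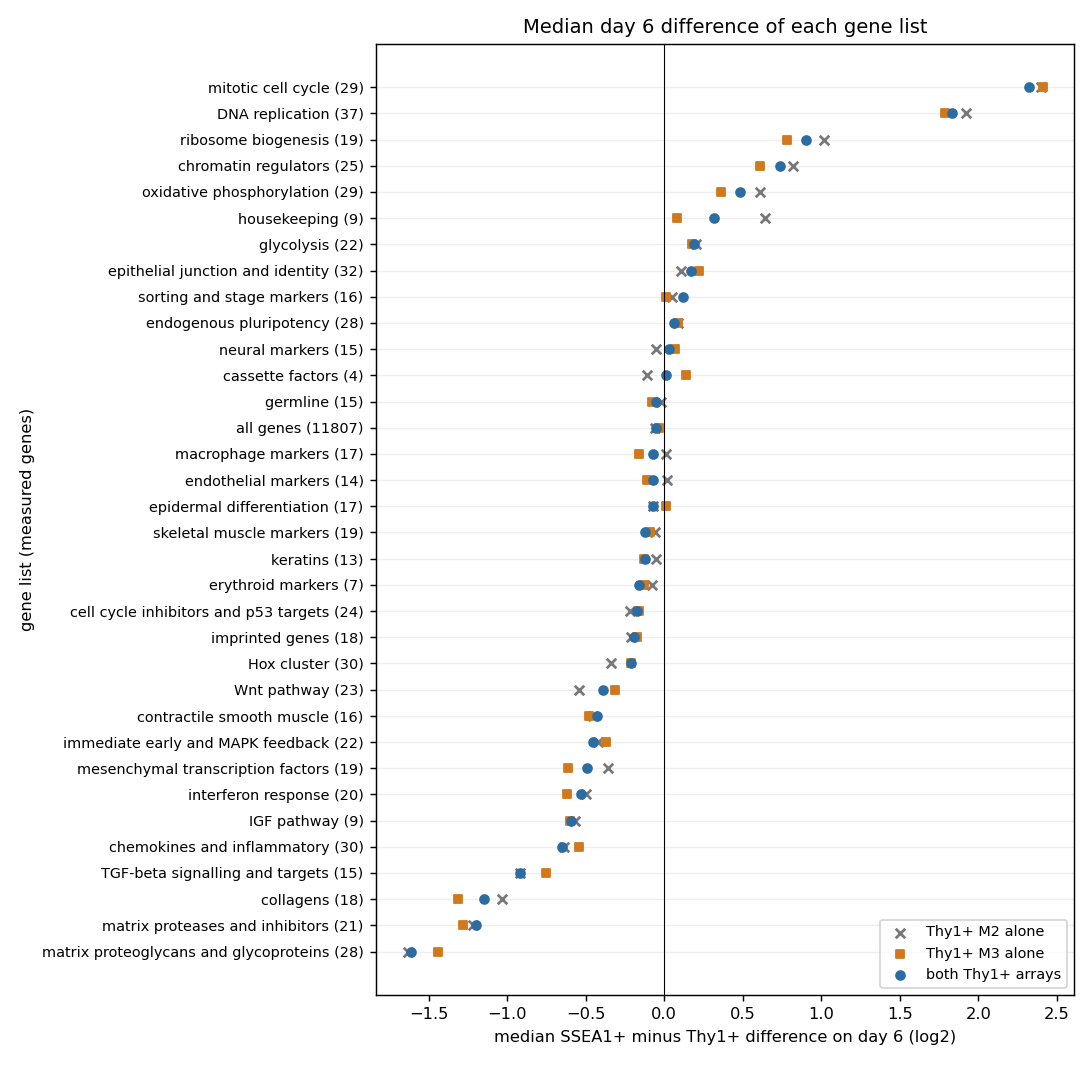
Median day 6 difference between SSEA1+ and Thy1+ cells (log2, horizontal) of each gene list, with its measured genes in brackets, with both Thy1+ arrays (circles), Thy1+ M3 alone (squares) and Thy1+ M2 alone (crosses). The mitotic list lies at 2.32, 2.41 and 2.40 and the matrix glycoprotein list at -1.61, -1.44 and -1.63, while the median of all genes is -0.05 with both arrays.

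Extracellular matrix genes were lower in SSEA1+ cells. Of 28 matrix proteoglycans and glycoproteins, 18 were called lower and 0 higher (median -1.61), and 19 were called lower with M3 alone. Of 18 collagens, 10 were called lower (median -1.15), and of 21 matrix proteases and inhibitors, 13 (median -1.20), with 0 higher in each. With M3 alone these counts were 11 and 13. Over all genes 6.25% were called lower with both arrays and 4.69% with M3 alone.

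Eln, elastin itself, and other genes of elastic fibres had the largest differences of the matrix list with both arrays, beside Aspn. With M3 alone Aspn stood first, followed by Eln, and Omd, Postn and Ogn (-2.29, -2.25 and -2.22) passed the other elastic fibre genes. Eln read 6.91 and 6.74 on the SSEA1+ M2 and M3 arrays and 9.85 and 9.20 on the Thy1+ M2 and M3 arrays. The difference was -2.70 ± 0.22 (SE; adjusted p = 1.09e-06), and -2.38 with M3 alone (adjusted p = 3.20e-06). The fraction groups were wide apart, although the second Eln probe set differed by only -0.68. Loxl1, an enzyme that crosslinks elastin, read 8.19 and 8.12 against 11.31 and 10.10 (-2.54; M3 -1.94). Mfap5 and Mfap4, proteins of the microfibrils that scaffold elastin, differed by -2.53 and -2.39, and by -1.95 each with M3 alone. Fbln5, which tethers elastin to cells, was called with -1.11 (M3 -1.07).

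Small leucine-rich proteoglycans and other matrix genes moved alongside. Aspn, asporin, read 6.79 and 6.51 in SSEA1+ cells and 9.32 and 9.34 in Thy1+ cells, with the Thy1+ arrays almost equal and a difference of -2.68 with both arrays and -2.69 with M3 alone. Dcn, decorin, differed by -1.65 (M3 -1.62), and Postn, periostin, by -1.95. Fibronectin (Fn1, -0.62; M3 -0.68) and Sparc (-0.22; M3 -0.43) were not called. Among collagens, Col16a1, a fibril-associated collagen, differed most with both arrays (-2.39; M3 -1.78), while Col11a1, a minor chain of cartilage fibrils, stood first with M3 alone (-1.82; M3 -1.81). Col1a1 and Col3a1 of the large fibrils differed by -1.54 and -1.10 (M3 -1.47 and -1.31). Both measured chains of the basement membrane collagen, Col4a1 and Col4a2, differed by -0.57 (M3 -0.41 and -0.56) and were not called.

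Among matrix proteases, Mmp19 read 5.85 and 5.13 in SSEA1+ cells and 9.02 and 7.39 in Thy1+ cells, a difference of -2.72 with both arrays and -1.90 with M3 alone. Its second probe set differed by -0.32. The gelatinase gene Mmp2 read 8.10 and 8.18 against 10.15 and 10.11, and Mmp14, which activates it at the cell surface, differed by -1.84 (M3 -1.57). Their inhibitor gene Timp3 was lower as well (-2.05; -1.67 with M3 alone). The stromelysin and collagenase genes Mmp3 and Mmp13 differed by -0.14 and -0.26 (M3 -0.21 and -0.18) and were not called.

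Of 15 genes of TGF-beta signalling, 6 were called lower and 0 higher in SSEA1+ cells (median -0.92), and 6 with M3 alone (median -0.75), of which 5 in both fits. The share of all genes called lower was 6.25% with both arrays. Tgfb3, a ligand, read 6.93 and 7.43 in SSEA1+ cells and 8.99 and 8.78 in Thy1+ cells. Inhba, which encodes activin A, read 6.65 and 6.62 against 9.37 and 8.47. The co-receptor gene Tgfbr3 read 4.85 and 5.05 against 9.72 and 6.13, so that its difference of -2.98 dropped to -1.18 with M3 alone. Bmp4, a ligand of the same superfamily outside the list, read 6.70 and 6.57 against 9.49 and 8.90. The targets Ccn1 and Ccn2 differed by -0.23 and -0.35 (M3 -0.40 and -0.49) and were not called.

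In the IGF pathway, 4 of 9 genes were called lower and 0 higher, the same 4 with M3 alone (medians -0.59 and -0.60). With both arrays, 6.25% of all genes were called lower. Igf1 read 7.51 and 7.72 in SSEA1+ cells and 9.30 and 9.56 in Thy1+ cells. The binding proteins Igfbp4, Igfbp5 and Igfbp6 differed by -2.50, -2.09 and -1.66 (M3 -2.63, -1.48 and -1.32), and the highest of 6 Igfbp4 probe sets by -0.85. In the Wnt pathway, 8 of 23 were called lower and 0 higher (median -0.39), and 7 with M3 alone (median -0.31). Among them were the ligand Wnt5a (-1.66; M3 -1.33), the antagonists Sfrp2 (-2.06; M3 -1.54), Dkk2 (-1.64; M3 -2.19) and Dkk3 (-1.42; M3 -1.58), and Ccn5, a secreted protein named for its induction by Wnt1 (-2.38; M3 -2.04). Axin2, a target of the canonical pathway, differed by -1.33 and was called only with both arrays (M3 -0.31), and its other probe set differed by -0.09. The fit of only 4 arrays called 2 genes of each of the TGF-beta and IGF lists and 3 of the Wnt list.

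Of 30 chemokines and inflammatory genes, 9 were called lower and 0 higher in SSEA1+ cells (median -0.65), and 9 with M3 alone (median -0.54), of which 6 in both fits. The chemokine gene Ccl8 had the largest difference of the lower genes named by the rule with both arrays, but not with M3 alone. It read 5.02 and 5.12 in SSEA1+ cells and 9.56 and 6.83 in Thy1+ cells, so that -3.12 ± 0.56 (adjusted p = 0.000869) dropped to -1.76 with M3 alone (adjusted p = 8.78e-05). Cxcl12, a chemokine of stromal cells, read 10.38 and 10.00 against 12.17 and 11.85. For comparison with the count of this list, 6.25% of all genes were called lower with both arrays. The receptors Tlr4, of bacterial endotoxin, and Il1r1, of interleukin 1, differed by -3.04 and -2.72, and still by -2.45 and -2.0 with M3 alone. The second Tlr4 probe set differed by -1.12. The acute phase gene Saa3 differed by -1.58 with both arrays and -0.54 with M3 alone, while Lcn2, encoding lipocalin 2, was called only with M3 alone (-0.97; M3 -1.55).

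Of 19 mesenchymal transcription factors, 4 were called lower and 0 higher (median -0.49), and 4 with M3 alone (median -0.61), of which 3 in both fits. Among all genes, 6.25% were called lower with both arrays. Prrx2, a homeobox factor of mesenchyme, read 6.38 and 6.54 in SSEA1+ cells and 8.76 and 8.34 in Thy1+ cells. Snai2, a repressor of epithelial genes, differed by -1.81 (M3 -1.42) and Twist2 by -1.26 (M3 -1.46), both called in both fits. Snai1 read 8.36 on Thy1+ M2 and 6.45 on Thy1+ M3 against 6.08 and 5.79, and was called only with both arrays. Zeb1 differed by -0.27 (M3 -0.68) and Twist1 by -0.84 (M3 -0.76), and neither was called. Of 16 contractile smooth muscle genes, 4 were called lower and 3 with M3 alone (median -0.43), with Mylk, the myosin light chain kinase, at -2.17 (M3 -1.97; highest probe set -0.53) and smooth muscle actin Acta2 at -0.60 (M3 -0.47), not called. Of 22 immediate early and MAPK feedback genes, 4 were called lower with both arrays, and none of those 4 with M3 alone, where limma called 2 others, Egr2 and Ier3.

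**Figure D3:**
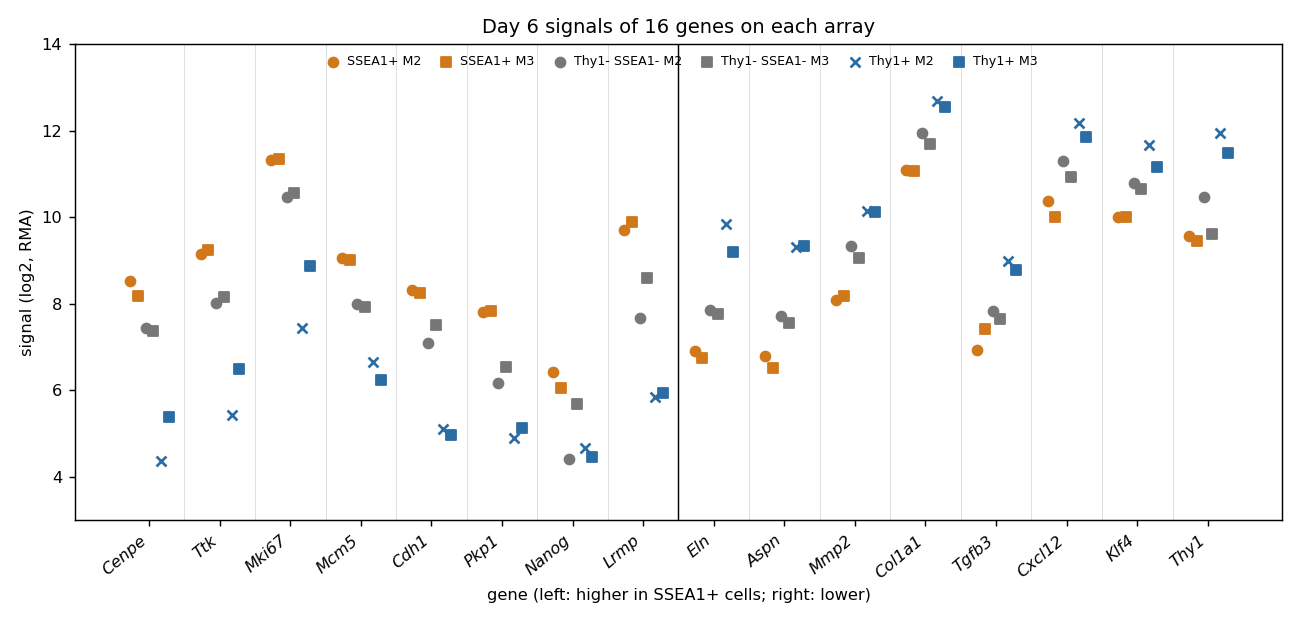
Log2 signals of genes that were higher (left) or lower (right) in SSEA1+ cells on day 6, 1 point per array: SSEA1+ in orange, Thy1+ in blue (the cross is M2) and cells negative for both antigens in grey. For every gene drawn the SSEA1+ arrays lie on 1 side of both Thy1+ arrays, and Mki67 on Thy1+ M2 (7.45) and M3 (8.88) shows the wider spread of that pair.

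Of 32 epithelial genes, 7 were called higher and 0 lower in SSEA1+ cells (median 0.17), and 7 with M3 alone (median 0.22), against 5.89% and 3.44% of all genes. E-cadherin, Cdh1, read 8.32 and 8.26 on the SSEA1+ arrays and 5.11 and 4.98 on the Thy1+ arrays, a difference of 3.25 ± 0.24 (SE; adjusted p = 5.68e-07) and 3.32 with M3 alone. Its Thy1+ arrays lay close together, and MEF read 3.83 and iPS cells 11.60 on average. Pkp1, a plakophilin of desmosomes, read 7.81 and 7.84 against 4.90 and 5.14. Dsp, desmoplakin, differed by 2.47 (M3 1.99), although its 3 probe sets ranged from 0.11 to 2.83. Spint1, a protease inhibitor of epithelia, differed by 2.61 (M3 2.78), Ehf, an epithelial ETS factor, by 1.90 (M3 1.36), Epcam by 1.75 (M3 2.13) and Perp, a desmosomal p53 target, by 1.68 (M3 1.41). The claudins Cldn3, Cldn4, Cldn6 and Cldn7 differed by 0.46, 0.00, -0.16 and 0.13 (M3 0.48, 0.05, -0.05 and 0.18) and were not called. Of 13 keratins, Krt8 was called, with both arrays only (1.48; 1.33 with M3 alone).

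Endogenous pluripotency genes had begun to part in a few members. Of 28 measured, 7 were called higher and 0 lower (median 0.06), and 6 with M3 alone (median 0.09), of which 5 in both fits. The share of all genes called higher was 5.89% with both arrays. Nanog, a core factor, read 6.43 and 6.06 in SSEA1+ cells and 4.67 and 4.47 in Thy1+ cells. The difference was 1.68 ± 0.40 (SE; adjusted p = 0.00597) and 1.78 with M3 alone (adjusted p = 0.0168), and the iPS mean was 11.79. Sall4, a zinc finger factor of the same network, read 6.85 and 6.78 against 5.13 and 4.40, with its other probe set at a difference of 0.23, and Nr0b1, an orphan nuclear receptor, 6.93 and 6.77 against 4.91 and 4.70. The cells negative for both antigens were uneven here: Nanog read 4.41 on M2 and 5.69 on M3, and Sall4 5.32 and 6.74. The Polycomb gene Phc1 differed by 1.50 (M3 1.69). Fbxo15, a target of Oct4 and Sox2, differed by 1.65 with both arrays and 0.90 with M3 alone. Late genes such as Zfp42 (0.06; M3 -0.05), Dppa5a (-0.21; M3 -0.33) and Esrrb (0.06; M3 -0.05) were not called.

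Of the 4 factors of the cassette, Klf4 alone was called. It read 10.01 and 10.00 in SSEA1+ cells and 11.66 and 11.17 in Thy1+ cells, a difference of -1.41 with both arrays and -1.16 with M3 alone, and thus was higher in the Thy1+ fraction. Pou5f1 (Oct4) differed by 0.15 (M3 0.07), Sox2 by 0.35 (M3 0.39) and Myc by -0.13 (M3 0.21). Whether these probe sets read the endogenous gene, the cassette or both was not tested. Among 16 surface and stage markers, Kit, a receptor tyrosine kinase, read 5.05 and 4.50 in SSEA1+ cells and 2.99 and 3.12 in Thy1+ cells, and Cd24a, a surface protein of epithelial and stem cells, differed by 2.17 (M3 2.34; other probe set 3.30). Icam1, an adhesion molecule used to stage reprogramming, was lower (-1.35; M3 -1.45), and Cd44, its usual partner marker, differed by -0.71 (M3 -0.25) and was not called.

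Several of the genes highest by the naming rule belonged to none of these lists. Bex4 read 9.67 and 9.47 in SSEA1+ cells and 4.73 and 6.40 in Thy1+ cells, a difference of 4.0 ± 0.37 (SE; adjusted p = 4.33e-06) that was 3.16 with M3 alone. Its X-linked relatives Bex1 and Bex2 differed by 3.52 and 3.23, and by 2.40 and 2.95 with M3 alone. The 3 genes also separated iPS cells (10.78, 11.72 and 8.65) from MEF (3.90, 4.12 and 4.60). Mpzl2, an adhesion protein of epithelia, read 7.81 and 7.55 against 3.44 and 4.25, though the lowest of its 3 probe sets differed by 0.69. Lrmp, a lymphoid membrane protein, read 9.70 and 9.88 in SSEA1+ cells and 5.86 and 5.93 in Thy1+ cells, against 4.86 in MEF and 6.26 in iPS cells. Elavl4, a neuronal RNA-binding protein, read 8.18 and 8.01 against 4.99 and 4.52, with 3.84 in MEF and 5.23 in iPS cells. Lrmp and Elavl4 thus stood higher in SSEA1+ cells of day 6 than in either end point.

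Among the lower genes outside the lists, Aqp4, a water channel, read 4.52 and 4.52 in SSEA1+ cells and 7.97 and 7.01 in Thy1+ cells. Its other probe set differed by -0.51. Its mean in MEF was 3.48, so that the Thy1+ cells stood above the fibroblasts they came from. Sod3, the extracellular superoxide dismutase, read 5.63 and 5.30 against 8.28 and 7.91, and its other probe set differed by -0.91. Sorcs2, a sorting receptor, differed by -2.58, C1qtnf3, a secreted C1q-like protein, by -2.57 and Islr, a protein of stromal cells, by -2.55. These 3 differed by -2.24, -2.83 and -2.30 with M3 alone. Clec2d, a ligand of natural killer receptors, read 9.46 on Thy1+ M2 and 7.42 on Thy1+ M3 against 5.53 and 6.04. Calcrl, the receptor of the adrenomedullin and CGRP peptides, differed by -2.74 with the probe set used (M3 -1.96) and 0.12 with its other one.

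To ask where the day 6 gap differed from the earlier one, the gap between the fractions was compared with that of day 3, which shares no arrays with it. Such gaps were not confined to day 6. The median of the mitotic list was 2.32 on day 6, 2.47 on day 9 and 3.59 on day 12. That of the matrix glycoprotein list was -1.61, -1.78 and -2.58, with 1 array per fraction on days 9 and 12. On day 3, 204 genes were called (1.73%), 37 higher (0.313%) and 167 lower (1.41%) in SSEA1+ cells. Called on both days in the same direction were 32 higher genes (86.5% of the day 3 calls, 4.60% of those of day 6) and 142 lower genes (85.0% and 19.2%), and 0 in opposite directions. The difference of the gaps was called for 220 genes (1.86%), 162 with a more positive gap on day 6 (1.37%) and 58 with a more negative one (0.491%). With Thy1+ M3 alone there were 235 (1.99%), 175 positive (1.48%) and 60 negative (0.508%), of which 181 were also called with both arrays. The count was 132 without either Thy1+ array of day 3, 136 and 135 without the SSEA1+ M2 and M3 arrays of day 3, 132 without SSEA1+ M2 of day 6 and 1990 without Thy1+ M3 of day 6, which left M2 to stand for its group. In a fit of only the 8 arrays compared, limma called 82, and with the replicate block (M2, M3) in it 0, where 433 genes had an unadjusted p under 0.05 and 2-fold. Of the 62 list members called for the difference of gaps, 25 lost the call in the 8-array fit and all 62 with the block, and of the 12 genes named for the size of this difference 6 and all 12.

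Of the 29 mitotic genes, 26 were called for the difference of the gaps with both arrays (median 1.96) and 26 with M3 alone (median 1.90), against 1.37% and 1.48% of all genes. Of the 37 replication genes these were 21 (median 1.22) and 19 (median 1.13). Both lists together held 47 of the 220 calls (21.4%), and 45 with M3 alone (19.1%). The 8-array fit called 17 mitotic and 11 replication genes, and 0 of either with the replicate block. The mean signal of the mitotic list was 9.40 and 9.50 on the Thy1+ arrays of day 3 and 9.97 and 9.85 on the SSEA1+ arrays of day 3. On day 6 it was 7.09 and 7.19 in Thy1+ cells and 9.51 and 9.43 in SSEA1+ cells, against 7.89 and 7.71 in MEF. The list thus was high in both fractions on day 3, and on day 6 it stayed near that level in SSEA1+ cells while the Thy1+ arrays lay below MEF. Cenpe followed this course, with means of 6.72 in MEF, 8.51 and 9.01 in Thy1+ and SSEA1+ cells of day 3, and a difference of gaps of 2.97 ± 0.37 (SE; adjusted p = 0.000511) and 2.47 with M3 alone. Its limma adjusted p was 0.0411 in the 8-array fit and 0.0833 with the block. Pclaf had the largest difference of gaps, 3.05 with both arrays and 2.56 with M3 alone.

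Eln and Mfap4 of the matrix list were called in the opposite direction. Eln averaged 10.09 in MEF and 5.16 and 5.13 in Thy1+ and SSEA1+ cells of day 3, where the gap was -0.02. By day 6 it read 9.85 and 9.20 in Thy1+ cells and 6.91 and 6.74 in SSEA1+ cells, a difference of gaps of -2.68 ± 0.31 (SE; adjusted p = 0.000238) and -2.35 with M3 alone. In the 8-array fit its limma adjusted p was 0.0228, and 0.0559 with the block. Mfap4 went from 10.45 in MEF to 4.78 and 5.02 on day 3, and on day 6 read 7.83 and 6.95 in Thy1+ cells and 4.95 and 5.06 in SSEA1+ cells. Igfbp5 and Rflnb, a regulator of the actin-binding filamins, showed the same order, with differences of gaps of -2.13 and -2.24 (M3 -1.52 and -1.73) that were not called in the 8-array fit. Thus these 4 genes were low in both fractions on day 3 and were higher on day 6 in the Thy1+ fraction. The matrix list as a whole was also higher on day 6 in Thy1+ cells, but was already lower in SSEA1+ cells on day 3: its mean was 9.28 and 9.37 in Thy1+ and 8.42 and 8.45 in SSEA1+ cells on day 3, 10.33 and 10.28 against 8.94 and 8.87 on day 6, and 11.16 and 11.17 in MEF. The other 26 of its 28 genes, Loxl1, Mfap5 and Fbln5 included, were not called for the difference of gaps.

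**Figure D4:**
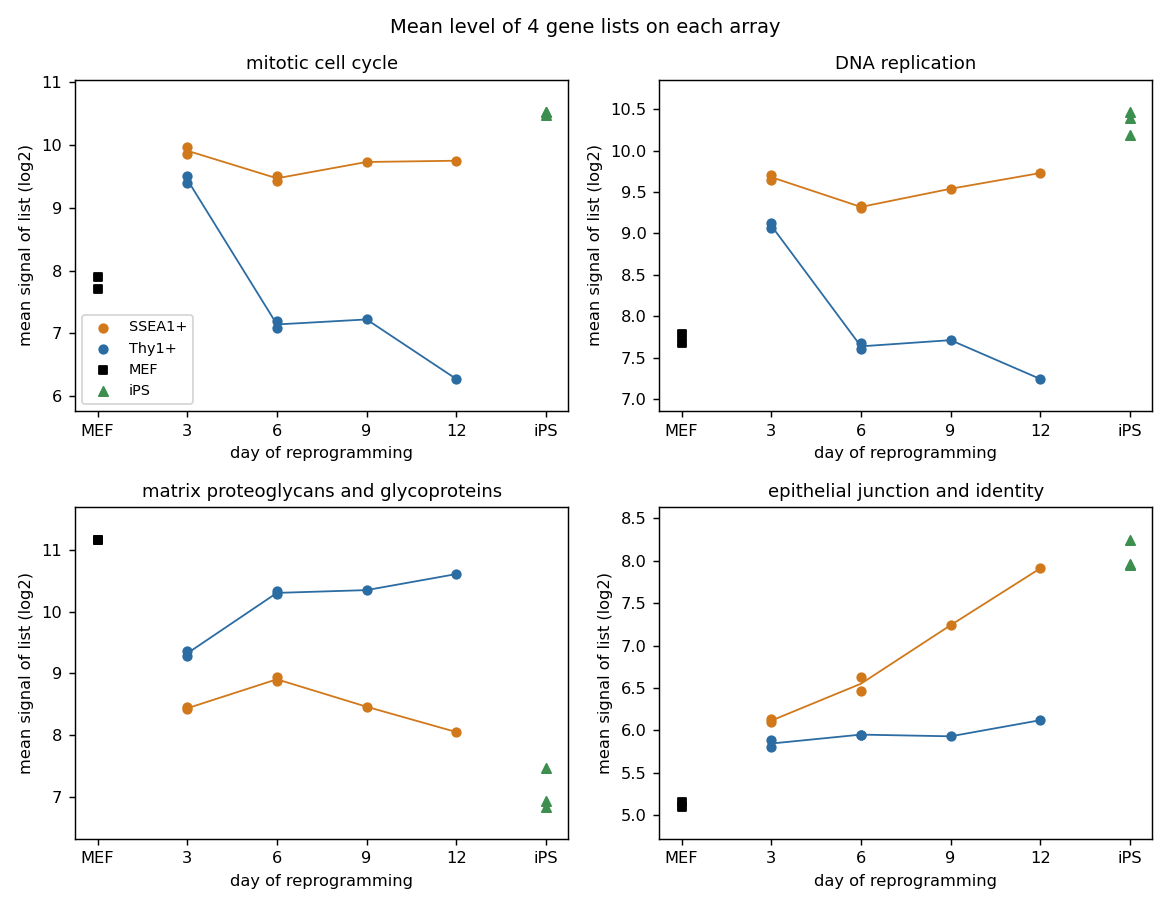
Mean log2 signal of 4 gene lists on each array, by day, for SSEA1+ cells (orange), Thy1+ cells (blue), MEF (black squares) and iPS cells (green triangles); lines join the means of a day, and days 9 and 12 have 1 array each. In Thy1+ cells the mitotic list stands at 9.40 and 9.50 on day 3 and at 7.09 and 7.19 on day 6, and the matrix list at 9.28 and 9.37 and at 10.33 and 10.28.

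Epithelial genes and stage markers contributed in smaller number. Cdh1 had a gap of 1.00 on day 3 and a difference of gaps of 2.25 (2.32 with M3 alone), and Pkp1 a gap of 0.49 and a difference of gaps of 2.31 (M3 2.20). Spint1 was called as well (1.69; M3 1.86). Kit read 3.17 and 3.24 on average in Thy1+ and SSEA1+ cells of day 3, so that its gap of 1.72 had opened by day 6. Nr0b1 was the pluripotency gene called for the difference of gaps with both arrays (1.55; M3 1.66). Nanog and Sall4 had gaps of 1.01 and 1.53 on day 3. On that day 1 of the 28 pluripotency genes was called higher, against 0.313% of all genes. The SSEA1+ arrays of day 3 were uneven for this list, with means of 6.01 on M2 and 5.60 on M3. Thy1+ cells of day 3 read 5.37 and 5.40. The differences of gaps of Nanog and Sall4, 0.67 and 0.51 (M3 0.77 and 0.88), were not called.

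Most called genes differed between iPS cells and MEF in the same direction. Of the 695 higher genes, 467 (67.2%) were called higher in iPS cells than in MEF, which held for 15.4% of all genes, and 12 were called lower. Of the 738 lower genes, 529 (71.7%) were called lower in iPS cells, against 15.3% of all genes, and 22 higher. With M3 alone the shares were 81.3% and 80.9%. These shares are descriptions, since all contrasts were fitted with a common estimate of the spread.

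The cells of day 6 negative for both antigens lay between the fractions for nearly all called genes. On the M2 array this held for 676 of the 695 higher and 715 of the 738 lower genes, and on the M3 array for 680 and 711. As a part of the way from Thy1+ to SSEA1+ cells, the median position of the M2 array was 0.62 for higher and 0.55 for lower genes. That of the M3 array was 0.67 and 0.66. For genes called with Thy1+ M3 alone, and measured from it, these medians were 0.51 and 0.44, and 0.56 and 0.58. In the cells negative for both antigens Cdh1 read 7.10 and 7.50, Pkp1 6.18 and 6.54, and Eln 7.86 and 7.76. As the extremes were chosen by the comparison itself, the position of this group between them is a description, not a test.

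Within SSEA1+ cells of day 6, the EpCAM split of the separate table called few genes, some of which were also day 6 calls. Of the 676 higher and 725 lower genes measured there, 16 and 21 were called in the same direction in EpCAM+ cells against EpCAM- cells. These are 2.37% and 2.9%, against 0.484% higher and 0.266% lower of all genes. They made up 28.6% of the 56 higher and 65.6% of the 32 lower EpCAM calls that were measured in both sets of arrays. Of the genes called with Thy1+ M3 alone, 4.02% of the higher and 4.24% of the lower were EpCAM calls in the same direction. The median EpCAM+ minus EpCAM- difference was 0.16 for the higher and -0.12 for the lower genes called with both arrays. For those called with M3 alone it was 0.22 and -0.16. Nanog was 3.42 higher in EpCAM+ cells, Nr0b1 2.33 and Cdh1 1.69, whereas Mki67 differed by -0.61 and Eln by 0.12 and neither was called.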

How the data were processed

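Total RNA of sorted cells was hybridised to 3′ arrays. The deposited log2 values, 1 per probe set, came from RMA of unstated version (submitters' processing notes). Which arrays were normalized together is not given in the sources used here. Array medians lay between 6.835 and 6.988. Of 22716 probe sets, 18003 carried 1 gene symbol, 287 several and 4426 none. Each of 11807 genes was read from its brightest probe set by mean signal, and other probe sets are given where those of a named gene lay over 1 log2 unit apart.

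Limma 3.58.1 (R 4.3.3) was fitted to all 24 arrays of the table with a mean for each of 15 groups (9 residual degrees of freedom). A call needed at least a 2-fold difference and an adjusted p (Benjamini-Hochberg, all genes) under 0.05. The EpCAM table (12394 genes) was fitted on its own, and levels were not compared across tables. The scripts were tested on simulated data. Named in the text are the 15 genes of largest difference each way whose arrays did not overlap and that kept 2-fold with Thy1+ M3 alone, the 6 largest each way for the difference of gaps, and members of 33 gene lists. The members and lists were chosen with earlier results of these data known. Precision is limited by 2 arrays per group.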

Additional observations from a re-analysis of the deposited data

Results flagged for a closer look

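Genes named for their size whose gap between SSEA1+ and Thy1+ cells differed between day 6 and day 3 by limma's test of the difference itself are given here. They are 21 in all, given as log2 values of the day 6 gap minus the day 3 gap. Called members of the gene lists outside that rule, such as Pkp1, Spint1 and Nr0b1, are not repeated. All 21 were also called with Thy1+ M3 alone, 10 of them in the fit of only the 8 arrays compared and 0 with the replicate block in it. Among genes of division the difference was 3.05 for Pclaf, 2.97 for Cenpe, 2.80 for Ttk, 2.79 for Mki67, 2.76 for Zwilch, 2.73 for Cep55, 2.70 for Aspm and 2.36 for Brca1. Outside division it was 2.25 for the cadherin gene Cdh1, 2.19 for Lrmp, 2.17 for Bex4 and 2.25 for Bex2. Of secreted and matrix proteins, Eln had -2.68, Mfap4 -2.64, Igfbp5 -2.13, Sod3 -1.88 and Bmp4 -1.77. The membrane proteins Aqp4, Tlr4 and Sorcs2 had -2.43, -2.05 and -2.03, and the filamin regulator Rflnb -2.24.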

How the results depend on the processing

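The count of day 6 calls, 1433, was 3568 with no minimum fold, 480 in a fit of only the 4 arrays compared, and 446 in that fit with the replicate block (M2, M3). M2 and M3 were not taken to pair the arrays, as the labels do not tie them to a common source. The deviations of the SSEA1+ and Thy1+ pairs correlated at r = -0.08 over genes. This value cannot decide the pairing, as the Thy1+ arrays lay far wider apart (root mean square 0.656 against 0.224). In a fit of 21 arrays without iPS cells, added after seeing the data, the day 6 count was 1401 with and 1402 without the replicate block. Leaving out 1 array gave 960 (without Thy1+ M2) to 2558 (without Thy1+ M3). The 220 calls for the difference of gaps became 82 in a fit of only the 8 arrays compared and 0 with the replicate block in it (433 genes at an unadjusted p under 0.05 and 2-fold in limma), and 132 to 1990 with 1 array left out. With 21 arrays they were 211 with the block and 235 without. Another normalization, filter, prior or choice of probe set kept both counts within 1.5-fold. No gene named for its size changed direction in an alternative run. Of the 30 named for the day 6 difference, 8 lost the call in the 4-array fit and 3 with the block in it, Aqp4 was removed by the filter on dim genes, and no other loss occurred. Of the 12 named for the difference of gaps, 6 lost it in the 8-array fit, all 12 with the block in it, 1 under quantile normalization and in each fit of 21 arrays, and up to 3 with 1 array left out. Signals near background limit what low genes such as Kit or Nanog show in Thy1+ cells.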

Other observations

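Some genes outside the lists and the naming rule, chosen after their values were seen, also separated the fractions. Of these, Tbx21, Hc and Tac2 did not follow the line from MEF to iPS cells. Tbx21, a T-box factor of lymphocytes, read 8.10 and 7.99 on the SSEA1+ M2 and M3 arrays and 4.88 and 5.00 on the Thy1+ arrays, against 4.40 in MEF and 4.51 in iPS cells. Hc, complement component C5, read 7.17 and 6.82 against 3.93 and 3.88, and 3.38 in both MEF and iPS cells. Tac2, a tachykinin gene, read 11.21 and 11.36 in SSEA1+ and 8.93 and 8.12 in Thy1+ cells, with 3.53 in MEF and 5.23 in iPS cells. All 3 were called with both arrays and with Thy1+ M3 alone, and none of their arrays overlapped. Elavl2, a relative of Elavl4, differed by 3.02, and its lowest probe set by -0.17. Tfap2c, a transcription factor of trophoblast and germ cells, differed by 2.46 (2.80 with Thy1+ M3 alone; other probe set 1.43) and read 10.96 in iPS cells.

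On the other side, a few genes read higher in Thy1+ cells of day 6 than in MEF. Fmo1, a flavin monooxygenase, read 9.73 and 9.72 in Thy1+ cells, 7.46 and 7.03 in SSEA1+ cells and 5.36 on average in MEF. Aqp1, a water channel like Aqp4, read 8.31 and 8.64 against 5.91 and 6.27, with 6.21 in MEF. Plvap, a protein of endothelial vesicles, read 8.79 and 7.33 against 5.52 and 5.54, with 4.43 in MEF. Edn1, endothelin 1, read 11.07 and 9.66 against 8.14 and 8.52, with 6.84 in MEF, so that its difference of -2.04 was -1.33 with Thy1+ M3 alone. All 4 were called in both fits, and their levels above MEF were not tested.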
